A study of Rattus norvegicus with 48 samples.

Results

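The 8 muscle miRNAs examined here are rno-miR-1-3p, rno-miR-1b, rno-miR-133a-3p, rno-miR-133a-5p, rno-miR-133b-3p, rno-miR-206-3p, rno-miR-208b-3p and rno-miR-499-5p, where rno stands for rat and is left out below. They were taken by name from the 645 miRNAs in the counts, and all 8 were listed there. Their levels were followed in the blood plasma of 12 male rats, aged 12 weeks at surgery, in which a hole had been drilled in the skull cap. The rats were named as Sprague-Dawley in the study's methods and as Wistar elsewhere in the study. Each hole was left empty or was filled with a collagen-hydroxyapatite scaffold, which was plain, carried plasmid DNA for BMP2 and miR-590-5p, or carried extracellular vesicles of mesenchymal stromal cells. From the full cohort the study chose the 6 rats with the most and the 6 rats with the least new bone on microCT, called strong and weak regenerators, from unequal numbers of each treatment. The treatment of each rat is not part of the labels, so treatment and regeneration group cannot be told apart here. All rats had the defect, and no rat without surgery was sequenced, so time after surgery and ageing cannot be told apart either. Each rat gave tail vein blood 4 times: once ahead of surgery (baseline) and again in weeks 1, 4 and 8. There are thus 48 samples, 6 for every combination of regeneration group and time.

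MicroRNAs are short RNAs that pair with messenger RNAs through their seed and lower the output of the matching genes. The miRNAs of the miR-1 and miR-133 families are made in skeletal and heart muscle, where miR-1 and miR-206 favour differentiation of muscle precursors and miR-133 is known for its part in their proliferation. miR-206 is typical of skeletal muscle, and miR-208b and miR-499 lie within genes of slow or heart myosin heavy chains. They are known to pass into the blood when muscle is worked or injured.

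The mature sequences below show which of these miRNAs can be told apart by few bases. They come from RefSeq on the rat assembly GRCr8, are written 5′ to 3′, and carry the seed (bases 2 to 8) in capitals. All 8 members had an entry.
miR-1-3p: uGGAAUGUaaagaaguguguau
miR-1b: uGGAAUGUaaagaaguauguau
miR-206-3p: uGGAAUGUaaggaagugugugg
miR-133a-3p: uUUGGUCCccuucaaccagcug
miR-133b-3p: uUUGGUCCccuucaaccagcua
miR-133a-5p: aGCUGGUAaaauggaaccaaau
miR-499-5p: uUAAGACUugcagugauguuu
miR-208b-3p: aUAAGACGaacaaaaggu
The 3 members miR-1-3p, miR-1b and miR-206-3p share the seed GGAAUGU, and miR-133a-3p and miR-133b-3p share UUGGUCC. Counted from the 5′ end, miR-1b differs from miR-1-3p by G17A alone, and miR-133b-3p differs from miR-133a-3p by G22A alone. miR-206-3p differs from miR-1-3p by A11G, A21G and U22G. The seeds of miR-499-5p and miR-208b-3p are alike up to their last base.

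Reads of the pairs that differ by 1 base can be assigned to either miRNA, so their separate levels are uncertain. miR-1-3p (gene Mir1, chr18:2160339-2160360, minus strand) and miR-133a-3p (Mir133a1, chr18:2157886-2157907, minus strand) lie 2453 bases apart within the span of Mib1. miR-133a-5p (chr18:2157923-2157944) is the other arm of the Mir133a1 hairpin. miR-206-3p (Mir206, chr9:30590747-30590768, plus strand) and miR-133b-3p (Mir133b, chr9:30594629-30594650, plus strand) lie 3845 bases apart. miR-1b (Mir1b, chr3:187864736-187864757, plus strand) overlaps no other listed gene. miR-208b-3p (Mir208b, chr15:32421648-32421665, minus strand) lies within Myh7, and miR-499-5p (Mir499a, chr3:164570616-164570636, plus strand) lies within Myh7b.

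The libraries held between 393259 and 1586398 miRNA reads, with a median of 796311. Levels are given as reads per 1000000 miRNA reads (RPM), a share of the library, so more of a miRNA and less of all others cannot be told apart. A count of 3 reads, used as the floor, corresponds to between 1.89 and 7.63 RPM. Reads were not counted by molecular identifiers, so this floor covers counting error only. Week 8 stood apart: the extraction spike-in UniSp2, a synthetic RNA added in equal amount to each sample, took 91.1 to 143.9 reads per 1000 miRNA reads at week 8 and 23.3 to 60.4 in the other 36 samples, without overlap. The week 8 libraries were also shallower, with a median of 609384 reads against 943250 in the others.

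miR-133a-3p carried most of the signal. It made up 93.9% of all reads of the 8 members and, with a mean of 2431 RPM over 48 samples, ranked 54 of 645 miRNAs. miR-1b (mean 66.0 RPM, 2.59% of the reads), miR-1-3p (31.3 RPM, 1.23%) and miR-133b-3p (25 RPM, 1.01%) followed. These 4 are called the abundant members below. The other 4 members had means under 10 RPM: 9.85 for miR-133a-5p, 7.95 for miR-206-3p, 6.87 for miR-499-5p and 6.49 for miR-208b-3p. miR-133a-3p, miR-1b and miR-133b-3p had reads in every sample, whereas miR-206-3p was at 0 in 7 samples and miR-499-5p in 4. The low members thus lay close to the floor, and their values rest on few reads.

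**Figure D1:**
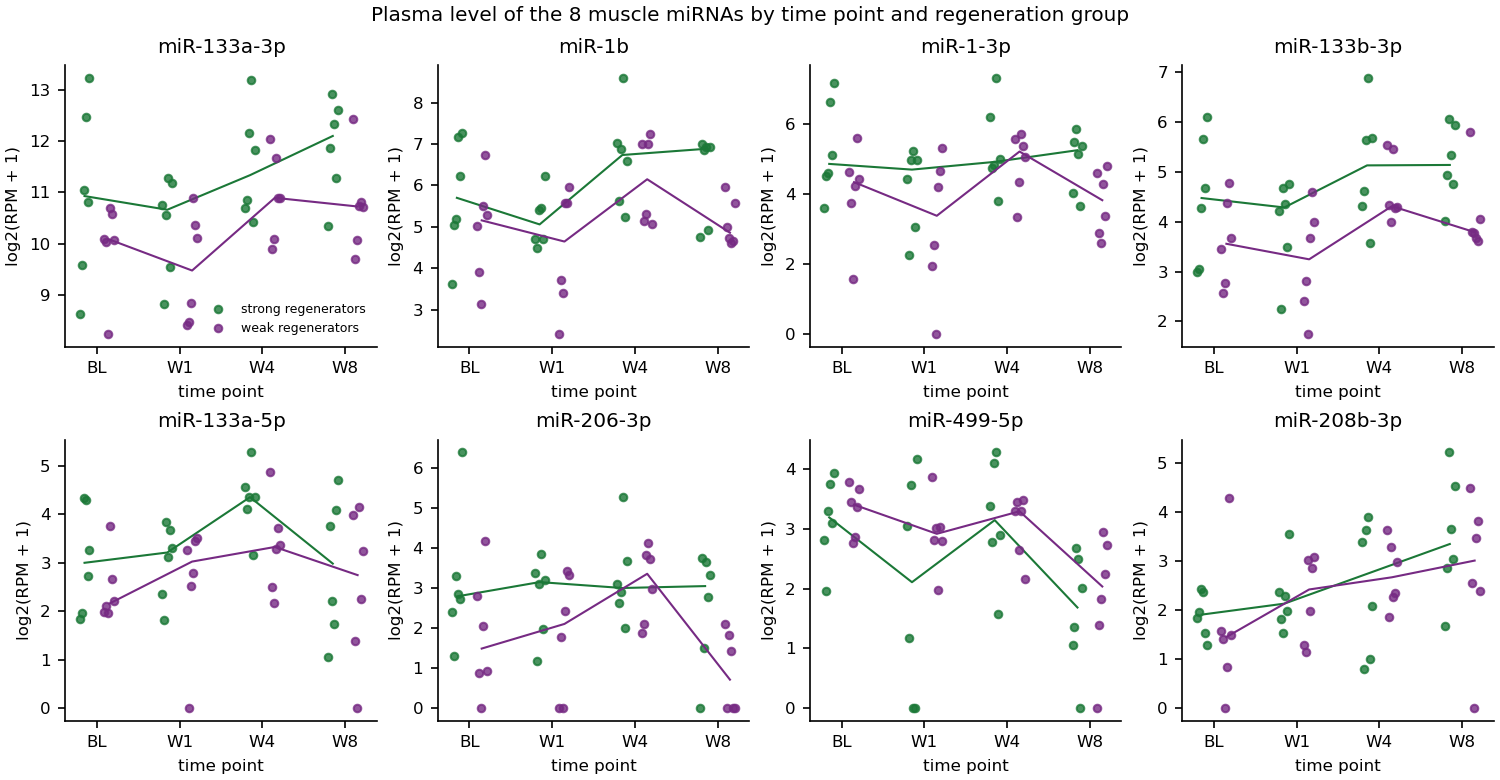
Level of each of the 8 miRNAs as log2(RPM + 1) in 48 plasma samples at baseline (BL) and weeks 1, 4 and 8 (W1, W4, W8). Each point is 1 rat (green, strong; purple, weak regenerators; 6 per group and time point), and lines join group medians. miR-133a-3p spans 304 to 9574 RPM, and the groups overlap for miR-133a-3p at every time point.

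The level of miR-133a-3p followed the order week 1, baseline, week 4, week 8 by its median. At baseline it ranged from 304.1 to 9574 RPM, with a median of 1309 over 12 rats. At week 1 the range was 340.9 to 2474 RPM and the median 1218. At week 4 the samples lay between 952.1 and 9270 RPM, with a median of 1906. At week 8 they lay between 835.4 and 7745 RPM, with a median of 2136. The ranges of all time points overlapped, and the spread between rats at 1 time point was wider than any shift between medians. The neighbours in this order were not separated: edgeR's quasi-likelihood test with the rat as a block gave an adjusted p (FDR, Benjamini-Hochberg) of 0.320 for week 1 against baseline, 0.103 for week 4 against baseline and 0.742 for week 8 against week 4.

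Between week 1 and week 4, 4 of the muscle miRNAs rose within rats. Samples of all time points came from the same 12 rats, and taking the rat as a block compares each animal with itself. Fitted so, 4 of 645 miRNAs were called at an FDR under 0.05 (0.620% of those tested), all of them higher at week 4, whereas the fit chosen first, which has no block, called none. The 4 calls of this fit were members: miR-1b, miR-133a-3p, miR-133b-3p and miR-1-3p. Reads of miR-1b and miR-1-3p, which differ by 1 base, can be assigned to either, as can those of miR-133a-3p and miR-133b-3p. The 4 calls thus need not be 4 separate rises. Without strong rat 17 the same fit called 17 of 318 tested miRNAs, 15 higher and 2 lower, of which 5 were members, so that the calls were no longer members alone. The other 4 members were not called, although their log2 fold changes were positive as well, at 0.34 to 1.08.

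miR-1b, which carries the seed of miR-1-3p, showed the largest of these rises. It ranged from 4.32 to 73.8 RPM at week 1 (median 33.3) and from 32.4 to 385.9 RPM at week 4 (median 106.1). It was higher at week 4 in 11 of 12 rats, the exception being weak rat 26, and its log2 fold change was 1.62 ± 0.31 (SE; FDR 0.00313 with edgeR), or 3.06-fold. miR-133a-3p was higher in 11 of 12 rats, with a log2 fold change of 1.16 ± 0.26 (FDR 0.0119), or 2.23-fold. Its exception was strong rat 2, which fell by 0.066 on the log2(RPM + 1) scale.

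The near-identical miR-133b-3p ranged from 2.37 to 25.8 RPM at week 1 (median 13.4) and from 10.9 to 116.6 RPM at week 4 (median 21.4). It too was higher in 11 of 12 rats, with a log2 fold change of 1.29 ± 0.29 (FDR 0.0119). miR-1-3p ranged from 0 to 38.9 RPM at week 1 and from 9.24 to 160.1 RPM at week 4, was higher in 10 of 12 rats, and had a log2 fold change of 1.35 ± 0.34 (FDR 0.0373). For each of the 4 the ranges of the 2 weeks overlapped, and it was the change within each rat that went mostly one way. The count fell to 1, miR-1b, when strong rat 21 was left out (the highest sample of all 4 at week 4), with FDRs of 0.0511 for miR-133a-3p and 0.0599 for miR-133b-3p. Leaving out each of the 12 rats in turn, miR-1b was called 12 times, miR-133a-3p and miR-133b-3p 11 times each, and miR-1-3p 5 times.

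**Figure D2:**
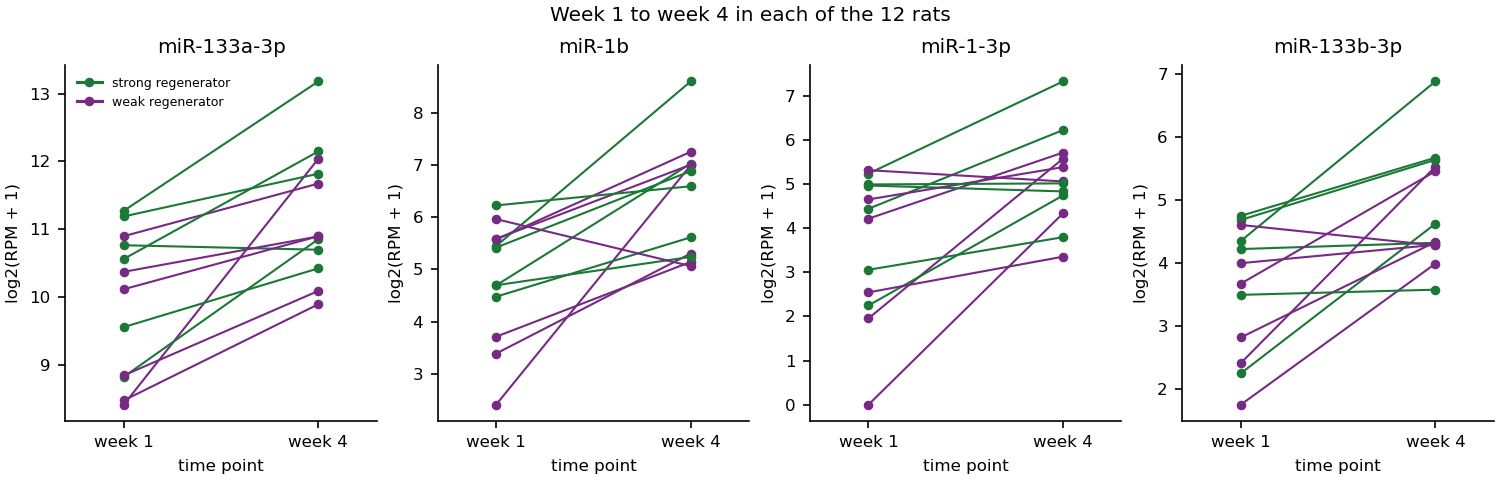
Level at week 1 and week 4 of the 4 abundant members as log2(RPM + 1), with 1 line per rat (green, strong; purple, weak regenerators). miR-133a-3p, miR-1b and miR-133b-3p are higher at week 4 in 11 of 12 rats each and miR-1-3p in 10 of 12.

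Without the block, edgeR called 0 of 8 members and 0 of 645 miRNAs between weeks 1 and 4 (0% of those tested). At an unadjusted p under 0.05 it gave 79 miRNAs, 5 of them members, and DESeq2 called 1 miRNA, which was miR-1b. The estimates were 1.63 ± 0.40 for miR-1b (FDR 0.0936) and 1.26 ± 0.41 for miR-133a-3p (FDR 0.309). The median log2 fold change was 1.14 over the 8 members and -0.01 over the 310 miRNAs with a mean of at least 10 RPM. Scaling to UniSp2 in place of TMM, together with the rat as a block, kept miR-1b, miR-133a-3p and miR-133b-3p among 4 called miRNAs. Lists of other tissues were read beside this. In the fit without a block, the 6 red blood cell miRNAs had a median log2 fold change of -0.09 between weeks 1 and 4. The median was -0.02 for the 6 of platelets and leukocytes and -0.26 for the 5 of liver. That fit called 0 of 645 miRNAs, so the absence of calls in these lists does not set them apart from the members. With the block, miRNAs outside the members were called in other settings as well: miR-298-5p with filterByExpr, miR-455-3p with UniSp2 and miR-10b-5p without strong rat 2.

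Week 1 against baseline gave estimates below 0 for 6 of 8 members. The fit without a block tested only miR-133a-3p and miR-1b, since the filter on abundance lay at 36.6 RPM, and called 0 of these 2, against 21.6% of 232 tested miRNAs. Of the 8 members, 1 had an unadjusted p under 0.05, beside 125 of all 645 miRNAs. DESeq2 called 0 members, beside 59 of 357 tested miRNAs. miR-133a-3p had a log2 fold change of -0.80 ± 0.40 (FDR 0.145) and was lower in 8 of 12 rats. With the rat as a block 12% of 407 tested miRNAs were called (5.90% higher and 6.14% lower), and 0 of 8 members. The member nearest to the threshold was miR-1-3p at -0.85 ± 0.34 (FDR 0.0886), lower in 9 of 12 rats. The count was 1, miR-1-3p, when strong rat 2 or weak rat 26 was left out. Under UniSp2 scaling, with or without the block, miR-1-3p and miR-133a-3p were called lower. In the same fits 76 of 420 tested miRNAs (with the block) and 59 of 445 (without it) were called lower, and the median of the 310 abundant miRNAs was itself at -0.34 and -0.32.

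Red blood cell miRNAs moved at the same time. At week 1, 4 of the 6 (miR-451-5p, miR-144-3p, miR-144-5p and miR-486) were called higher than at baseline without a block. In that fit 12.5% of 232 tested miRNAs were called higher. The summed level of the 6 went from 200449 to 303666 RPM at baseline to 216494 to 396846 RPM at week 1. Of the 5 liver miRNAs 3 were tested, and miR-122-5p (log2 fold change 0.97 ± 0.36) and miR-802-5p (1.21 ± 0.25) were called higher. Their part in the estimates of the members was not tested.

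Week 4 against baseline gave positive estimates for all 8 members, with a median log2 fold change of 0.68 without a block. In that fit all 5 liver miRNAs (median 0.59) and all 6 of red blood cells (median 0.35) were positive as well. Of those of platelets and leukocytes, 4 were positive and 2 negative (median 0.07). A uniform rise was thus not particular to the members. edgeR without the block called 0 of 8, against 4.19% of 645 miRNAs (0.155% higher and 4.03% lower). Of the members, 4 had an unadjusted p under 0.05, beside 115 of 645 miRNAs. DESeq2 called miR-133a-5p, among 33 of 407 tested miRNAs (6 higher and 27 lower). With the rat as a block 3 members were called, all higher: miR-1b (1.16 ± 0.30, FDR 0.00999), miR-133b-3p (0.98 ± 0.27, FDR 0.0193) and miR-133a-5p (1.2 ± 0.35, FDR 0.0280). In that fit 5.00% of 620 tested miRNAs were called, with 0.645% called higher and 4.35% lower, so these 3 were among 4 miRNAs called higher. That number was 11 with RLE size factors and 10 with filterByExpr, each with the block, and between 3 and 12 with single rats left out (12 without weak rat 25, 9 without strong rat 21 or weak rat 6). miR-133a-5p, the less abundant arm of its hairpin, ranged from 2.59 to 19.1 RPM at baseline (median 4.46) and from 3.50 to 37.9 RPM at week 4 (median 14.2), and was higher in 11 of 12 rats. Under UniSp2 scaling with the block 0 of 8 members were called, and the median of the 310 abundant miRNAs was itself lower by 0.28.

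**Figure D3:**
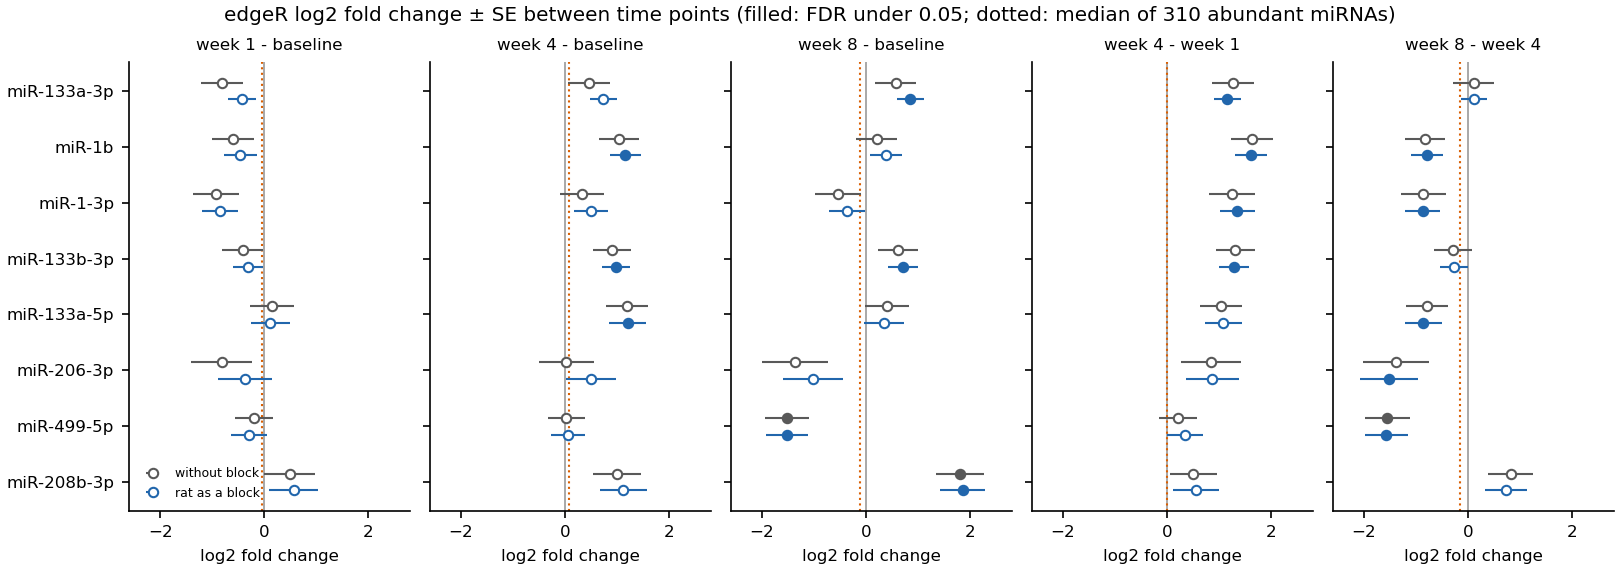
edgeR log2 fold change ± SE of the 8 miRNAs for 5 comparisons of time points, without a block (grey) and with the rat as a block (blue). Filled circles have an FDR under 0.05, and the dotted line is the median of 310 miRNAs with a mean of at least 10 RPM. From week 1 to week 4 all 8 estimates are positive, and at week 8 against baseline miR-208b-3p is at 1.81 and miR-499-5p at -1.52 without a block.

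At week 8 miR-208b-3p and miR-499-5p were called in opposite directions. Without a block edgeR called 2 of 8 members against baseline, where 40.3% of 620 tested miRNAs were called, 14.2% higher and 26.1% lower. A share of 2 in 8 lies below the background, so these calls do not set the members apart from other miRNAs at week 8.

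miR-208b-3p, which lies within the slow and heart myosin gene Myh7, ranged from 0 to 18.6 RPM at baseline (median 1.93) and from 0 to 36.3 RPM at week 8 (median 8.67). The ranges overlapped fully, and 9 of 12 rats were higher at week 8. Its log2 fold change was 1.81 ± 0.46 (FDR 0.00106), or 3.50-fold, while under UniSp2 scaling it was -0.11 and not called. At baseline miR-208b-3p rested on 0 to 14 reads per library, under the floor of 3 reads in most of them. miR-499-5p, which lies within the related myosin gene Myh7b, ranged from 2.91 to 14.4 RPM at baseline (median 9.05) and from 0 to 6.71 RPM at week 8 (median 2.79). It was lower at week 8 in 11 of 12 rats, with a log2 fold change of -1.52 ± 0.43 (FDR 0.00299). At week 8 it rested on 0 to 4 reads per library, with a median of 1.5, which is under the floor of 3 reads for most libraries. Both miRNAs of myosin genes stayed under 40 RPM in every sample.

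With the rat as a block, 4 members were called at week 8, beside 47.6% of 532 tested miRNAs (16.7% higher and 30.8% lower): miR-208b-3p and miR-499-5p as before, and miR-133a-3p (0.85 ± 0.26, FDR 0.00665) and miR-133b-3p (0.70 ± 0.28, FDR 0.0377) higher. miR-133b-3p was not called with library size in place of TMM, and it was called in 9 of 12 fits that left out 1 rat. The directions of miR-133a-3p and miR-133b-3p turned under UniSp2 scaling with the block, to -1.09 for miR-133a-3p and -1.21 for miR-133b-3p, both called lower. That scaling moved the median of the 310 abundant miRNAs by -2.02, and relative to it miR-133a-3p stood 0.93 higher and miR-133b-3p 0.81 higher. Relative to the same median miR-208b-3p stood 2.03 higher and miR-499-5p was lower, at -1.28. Every week 8 library had the high UniSp2 share, so week 8 and whatever sets these libraries apart cannot be told apart.

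Between week 4 and week 8 the members called by edgeR with TMM and all 12 rats were all lower, and miR-133a-3p was not among them. Without a block miR-499-5p alone was called (-1.55 ± 0.43, FDR 0.00254), against 40.0% of 532 tested miRNAs (14.3% higher and 25.8% lower). With the rat as a block 5 of 8 members were called, all lower, beside 39.5% of miRNAs called in either direction (13.7% higher and 25.8% lower). They were miR-499-5p (-1.57 ± 0.41), miR-206-3p (-1.52 ± 0.56), miR-1-3p (-0.86 ± 0.34), miR-133a-5p (-0.86 ± 0.36) and miR-1b (-0.78 ± 0.31), with FDRs from 0.00146 to 0.0495. miR-133a-3p had 0.12 ± 0.25 (FDR 0.742) and miR-133b-3p -0.27 ± 0.27 (FDR 0.448). Of the 5 calls, miR-499-5p and miR-206-3p remained under library size and under RLE size factors, each with the block, and the others did not. Leaving out each rat in turn gave 1 to 5 calls, and miR-499-5p was the only member called in all 12 of these fits. One call went the other way: without weak rat 7 miR-208b-3p was called higher, and its estimates in these fits ran from 0.68 to 1.02. Under UniSp2 scaling with the block miR-133a-3p was called lower (-1.46), where the median of the 310 abundant miRNAs was itself at -1.67. miR-206-3p, the skeletal muscle member, ranged from 2.65 to 37.9 RPM at week 4 and from 0 to 12.5 RPM at week 8, where 4 of 12 samples were at 0.

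Strong and weak regenerators were compared next. Over all time points edgeR called 0 of 8 members and 0 of 645 miRNAs (0% of those tested). At an unadjusted p under 0.05 it gave 64 miRNAs, of which 5 were members, and DESeq2 called 0. Estimates were positive, which is higher in strong regenerators, for 7 of 8 members, with a median of 0.77 over the members and -0.02 over the 310 abundant miRNAs. This fit treats the 4 samples of a rat as independent, so its p-values are too small.

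miR-133a-3p ranged from 400.0 to 9574 RPM in the 24 samples of strong regenerators (median 2222) and from 304.1 to 5513 RPM in the 24 samples of weak regenerators (median 1218). Its log2 fold change was 0.95 ± 0.26 (FDR 0.103), or 1.94-fold. It was called when strong rat 2 (FDR 0.0479) or weak rat 3 (FDR 0.0416) was left out. With the samples of each rat summed the estimate was 1.01 ± 0.35 (FDR 0.787). The rat mean of log2(RPM + 1) was 11.2 ± 0.995 (SD, n = 6) in strong and 10.3 ± 0.693 (SD, n = 6) in weak regenerators, and the difference of 0.90 had a p of 0.0996 in the two-sided exact permutation test over 924 splits. The rat means overlapped: strong rats lay between 10.1 and 12.3 and weak rats between 9.32 and 11.0, so that 3 strong rats stood above every weak rat and the other 3 lay within the range of the weak rats.

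The remaining abundant members had log2 fold changes of 0.89 ± 0.29 for miR-1-3p, 0.79 ± 0.25 for miR-133b-3p and 0.74 ± 0.26 for miR-1b, with FDRs from 0.180 to 0.207. miR-206-3p had an estimate of 1.18 ± 0.41 (FDR 0.202), which was 0.68 without strong rat 29, and was at 0 in 6 samples of weak and 1 sample of strong regenerators. miR-208b-3p (0.07) and miR-499-5p (-0.12) showed estimates near 0, and the sign of each turned when single rats were left out. The red blood cell miRNAs had lower estimates in strong regenerators for 6 of 6, with a median of -0.14 and 0 called. Their part in the estimates of the members between the groups was not tested.

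**Figure D4:**
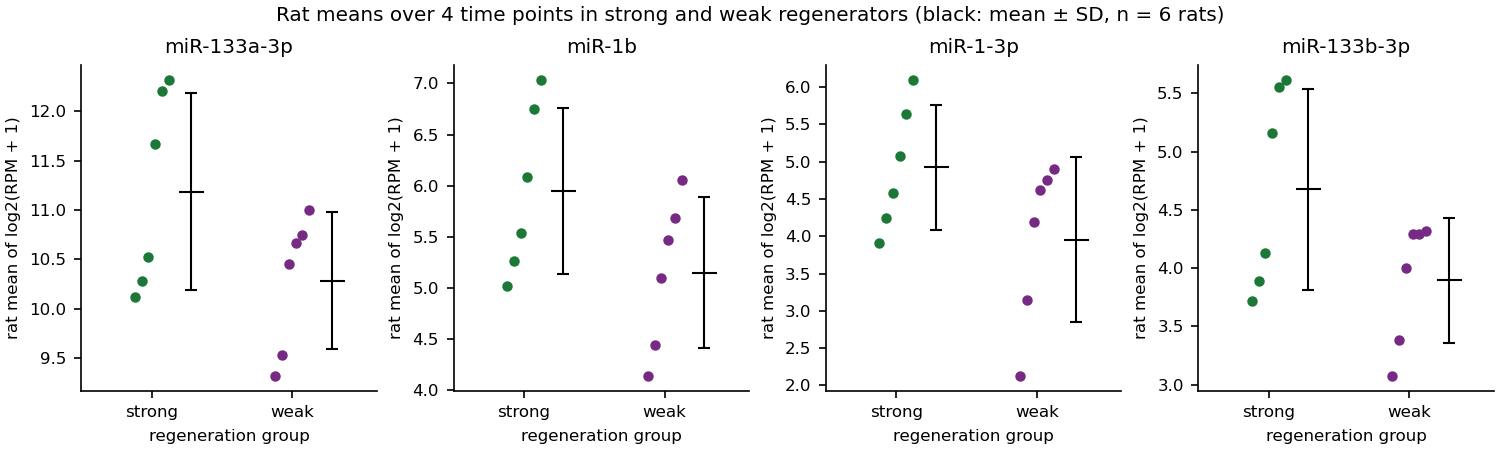
Mean of log2(RPM + 1) over 4 time points in each rat for the 4 abundant members, in strong (green) and weak (purple) regenerators. Black bars give the group mean ± SD (n = 6 rats). For miR-133a-3p the means are 11.2 and 10.3, and the groups overlap.

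The groups were also compared at each time point, beginning before surgery. At baseline miR-133a-3p ranged from 400.0 to 9574 RPM in strong regenerators (median 1957) and from 304.1 to 1652 RPM in weak regenerators (median 1086). The ranges overlapped, and the log2 fold change was 1.58 ± 0.52 (FDR 0.535). Leaving out each rat in turn gave 0.89 to 1.81. The later estimates were 0.68 ± 0.51 (week 1), 0.64 ± 0.50 (week 4) and 0.92 ± 0.51 (week 8), with FDRs of 0.912, 0.851 and 0.747. With single rats left out these ran from 0.50 to 1.00, from 0.20 to 0.96 and from 0.68 to 1.54. No member was called at any single time point by edgeR, where 0.155% of 645 miRNAs was called at week 8 and 0% at the other times. At an unadjusted p under 0.05 there were 4 members and 42 of 645 miRNAs at baseline. These counts were 0 and 32 at week 1, 0 and 25 at week 4, and 1 and 35 at week 8. The change since baseline was compared between the groups as well. For miR-133a-3p the strong minus weak difference in log2 change since baseline was -0.90 ± 0.71 (week 1), -0.94 ± 0.71 (week 4) and -0.66 ± 0.71 (week 8). These come from the fit without a block, where edgeR called 0 of 8 members in each case (0% of 645 miRNAs). With the rat as a block, which pairs the samples of an animal, the differences were smaller: -0.42 ± 0.53, -0.55 ± 0.52 and -0.16 ± 0.52. No member was called there either.

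At week 8, 4 of 6 strong regenerators had miR-1b levels over 100 RPM, and the highest weak regenerator had 61.6 RPM. The ranges were 26.1 to 126.8 RPM (median 117.1) and 23.5 to 61.6 RPM (median 28.1), and the log2 fold change was 1.13 ± 0.54 (FDR 0.747). These groups overlapped through the other 2 strong rats. At week 4, rats of both groups exceeded 100 RPM, up to 385.9 RPM in strong and 151.2 RPM in weak regenerators.

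The levels of the abundant members were correlated. Over the 48 samples, Pearson's r of log2(RPM + 1) lay between 0.81 and 0.93 for their 6 pairs, with the highest value for miR-133a-3p and miR-133b-3p (Spearman's rho 0.88). The 48 samples share 12 rats, so these values are a description. Reads of miR-133a-3p and miR-133b-3p, which differ by 1 base, can be assigned to either, so their r need not reflect separate levels. Within the 12 samples of week 8 the same pairs had r of 0.76 to 0.94, and within the other 36 samples 0.86 to 0.92. miR-1-3p and miR-133a-3p, whose genes are neighbours, had an r of 0.81, and miR-206-3p and miR-133b-3p, also neighbours, 0.66. miR-133a-3p and miR-133a-5p, which come from the same hairpin, had 0.56. The low members correlated less: miR-206-3p had r of 0.60 to 0.73 with the abundant members, miR-208b-3p -0.03 to 0.54 with the other 7 and miR-499-5p -0.03 to 0.28. Over all samples miR-208b-3p had a median of 3 reads per library and miR-499-5p of 5.

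Over the means of the 12 rats, where points are independent, the 6 pairs of abundant members had r of 0.88 to 0.99 and rho of 0.80 to 0.96. The p-values from 100000 permutations, adjusted over 6 pairs, were at most 0.00016 for r and 0.0025 for rho. The smallest p these permutations can give is 1e-05, reached by miR-133a-3p with miR-133b-3p. These 2 differ by 1 base, as do miR-1b and miR-1-3p, so reads assigned to the wrong miRNA could by themselves correlate them. For such pairs r and its p cannot show that separate miRNAs vary together. miR-133a-3p and miR-1b, which share no seed, had r of 0.95. Without the 2 rats farthest from the median, r of the 6 pairs lay between 0.82 and 0.98. Strong rats 21 and 29 had the highest rat means of miR-133a-3p and weak rats 6 and 7 the lowest.

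**Figure D5:**
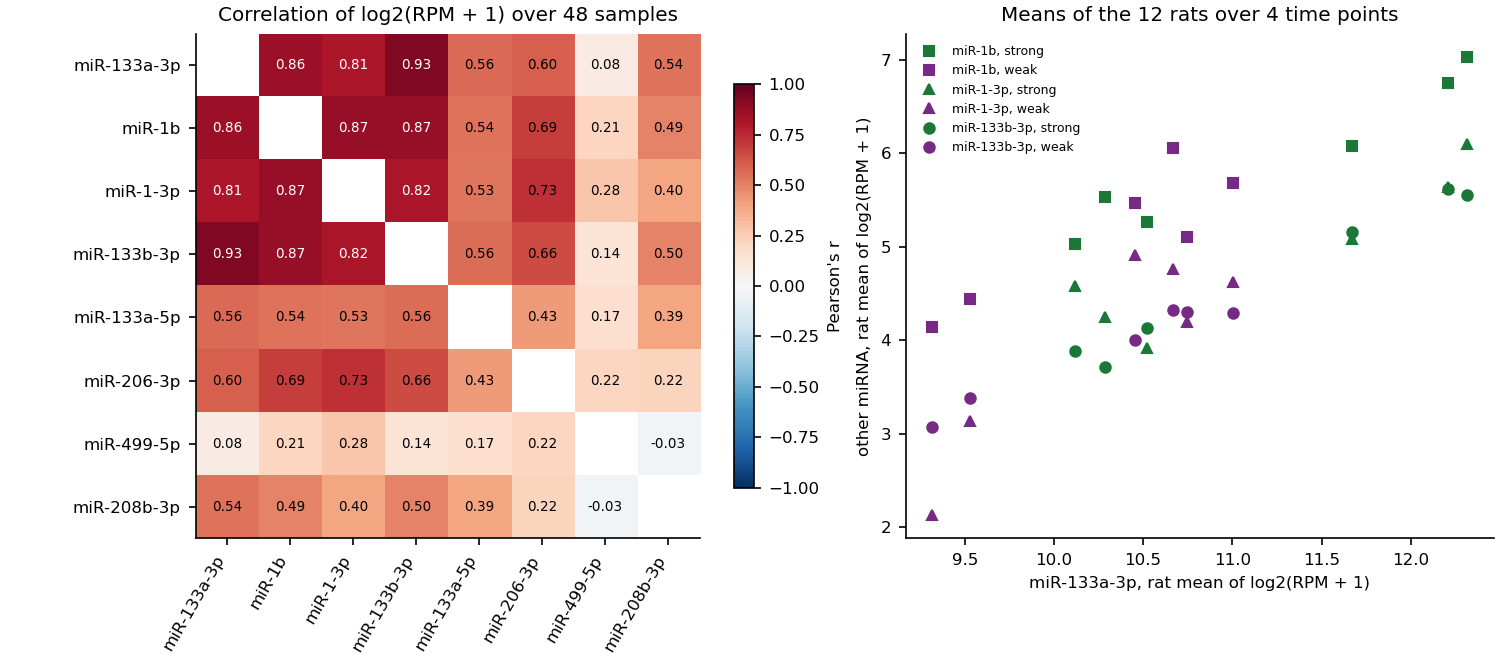
Left, Pearson's r between the 8 miRNAs over 48 samples on the log2(RPM + 1) scale (colour from -1 to 1, diagonal left blank). Right, rat means over 4 time points of miR-1b (squares), miR-1-3p (triangles) and miR-133b-3p (circles) against miR-133a-3p in strong (green) and weak (purple) regenerators. The 6 pairs of the 4 abundant members reach r of 0.81 to 0.93 on the left.

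The levels of miR-133a-3p in the same rat at weeks 4 and 8 were correlated, with r = 0.80 (permutation p = 0.0257 adjusted over 12 tests) and rho = 0.80 (adjusted p = 0.0208 by permutation) over 12 rats. Without the 2 rats farthest from the median r was 0.78. Baseline against week 4 gave r = 0.68 and baseline against week 8 r = 0.65, both with an adjusted permutation p of 0.0824, and without rats 21 and 29 they gave 0.50 and 0.49. For rho the adjusted permutation p was 0.0408 and 0.0333 for the same pairs. Baseline against week 1 gave r = 0.58 (adjusted permutation p = 0.112), week 1 against week 4 r = 0.56 (0.114) and week 1 against week 8 r = 0.29 (0.439). Without the 2 rats farthest from the median these were 0.28, 0.74 and 0.36. miR-1b had r from 0.21 to 0.62 over the 6 pairs of time points, and its only rho with an adjusted permutation p under 0.05 was 0.79 for baseline against week 1 (adjusted p = 0.0208 by permutation).

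The ratios of near-identical members were compared over the 12 rats by exact permutation. Summed over each time point, miR-133a-3p had 105.8, 85.1, 81.6 and 108.3 reads per read of miR-133b-3p at baseline and weeks 1, 4 and 8. The log2 ratio changed from baseline by -0.07, -0.09 and 0.24 at these weeks, with adjusted exact p-values of 0.519 to 0.861. miR-1b had 1.52, 1.92, 2.46 and 2.53 reads per read of miR-1-3p at the same time points. Its log2 ratio rose in 8, 10 and 10 of 12 rats by 0.48, 0.59 and 0.63, but the exact p-values of 0.0557, 0.0278 and 0.0171 became 0.223, 0.167 and 0.167 after adjustment over 12 tests. Without weak rat 16 the week 8 ratio passed the threshold. miR-133a-3p against miR-1b changed by 0.02, -0.29 and 0.54 (adjusted exact p 0.237 to 0.923). None of the 3 ratios was called between strong and weak regenerators, where adjusted exact p-values ran from 0.519 to 0.794.

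Other arms and relatives of these hairpins were scarce. Of 8 further muscle miRNAs (the opposite arms, miR-133c and the miR-208a pair), 7 were listed in the counts. miR-499-3p, with the highest mean, reached 7.19 RPM at most, and miR-208a-3p, which shares the seed UAAGACG with miR-208b-3p and lies within the heart myosin gene Myh6, had a median of 0 RPM. miR-133c, which lies over miR-133a-3p on the other strand, had 1 read in all. At week 8 miR-206-5p was called higher, but all 4 of its reads came from 1 library. No other miRNA of this list was called between time points. None was called between the groups, where 0 of 645 miRNAs were called over all time points.

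Broadly expressed miRNAs with roles in muscle differentiation were read as a further list. Of 18 such miRNAs, 0 were called between weeks 1 and 4 in the fit without a block, with a median log2 fold change of -0.05. That fit called 0 of 645 miRNAs between these weeks, so the count does not set the list apart from the members. Against baseline, 5 were higher and 3 lower at week 1, 0 higher and 2 lower at week 4, and 6 higher and 6 lower at week 8, in the fit without a block, which tested 17 of the 18 at week 1 and all at the other times. The background in that fit was 12.5% higher and 9.05% lower at week 1, 0.155% and 4.03% at week 4, and 14.2% and 26.1% at week 8. The 2 lower at week 4 were miR-322-5p (-1.11 ± 0.14) and miR-503-5p (-1.16 ± 0.16), neighbours in 1 cluster that slow the cell cycle. miR-378a-3p, which is processed from an intron of the metabolic regulator gene Ppargc1b, was higher at week 1 (0.33 ± 0.10) and at week 8 (0.50 ± 0.10). Between strong and weak regenerators over all time points 0 of 18 were called, as were 0 of all 645 miRNAs.

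The miRNAs most like miR-133a-3p over the 48 samples, among 306 with a mean of at least 10 RPM, were miR-187-3p (r = 0.61), miR-378a-3p (0.58), miR-874-3p (0.52), miR-23a-3p (0.52) and miR-425-5p (0.51). For miR-1b they were miR-23a-3p (r = 0.51), miR-452-5p (0.48), miR-378a-3p, miR-187-3p and miR-136-3p (0.46 each). No miRNA outside the members came as close to miR-133a-3p as the 3 other abundant members did. The log2 ratio of miR-451-5p to miR-23a-3p, a common measure of haemolysis, had r of -0.38 with miR-133a-3p, -0.36 with miR-1b, -0.52 with miR-1-3p and -0.39 with miR-133b-3p over the 48 samples. Since miR-23a-3p is the denominator of that ratio, its own likeness to the members enters these values.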

How the data were processed

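Plasma small RNA of 12 rats at 4 time points was sequenced by single-adapter ligation. The authors checked reads with FastQC 0.11.9 and MultiQC 1.10, trimmed them with cutadapt 3.3, aligned them with Bowtie 1.3.0 and miRDeep2 to the rat genome and miRBase, and deposited raw counts of 645 miRNAs and 3 spike-ins, without normalization (tool versions per the labels' processing notes). The labels name a human build beside the rat genome of the methods. No column was left out. Baseline samples were assigned to a group through the animal.

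Spike-ins were left out of library sizes and tests. RPM was computed from the miRNA total. Counts were tested in R 4.3.3 with edgeR 4.0.16 (TMM, quasi-likelihood as in edgeR version 3, two-sided) over all miRNAs left by an independent filter on mean RPM, with Benjamini-Hochberg adjustment and calls at an FDR under 0.05. Week contrasts had the time point as the only term, and DESeq2 1.42.0, the rat as a block, other scalings and filters, and leaving out each rat were alternatives. The block pairs samples of the same animal. Deviations from the group mean had a mean correlation of 0.107 within rats and -0.029 between rats, and 6 of 12 rats had a mean over 0.1. No 2 libraries of a group agreed within sampling noise (lowest chi-square per degree of freedom 25.3 over 120 pairs). The 12 rats are separate animals. Levels were set on log2(RPM + 1), and permutations were run in Python 3.11.15 with numpy 2.4.6 and scipy 1.17.1. Simulated data were used to test only the week contrasts fitted by edgeR with TMM and no block. Fits that pair samples by animal, group comparisons, UniSp2 scaling and DESeq2 were not tested in this way.

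All 8 members are named, with the 5 miRNAs most like miR-133a-3p and miR-1b by Pearson's r and the listed muscle, myogenesis and marker miRNAs. Members and lists were chosen with earlier results of these data known. The rat treatments, bone volumes and histology were not analysed here.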

Additional observations from a re-analysis of the deposited data

Results flagged for a closer look

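Of 64 sets of 6 samples (8 members, 4 time points, 2 groups), 4 held 1 sample that stood apart from the other 5 by Dixon's ratio on log2(RPM + 1), above its critical value. Chance gives this in about 5% of sets, which is 3.2 of 64. At baseline, weak rat 7 had the lowest level of miR-133a-3p, 304.1 RPM, where the other weak regenerators had 1047 to 1652 RPM. At week 1, weak rat 6 was at 0 for miR-133a-5p, where the others had 4.74 to 10.5 RPM. At week 8, weak rat 3 had the highest level of miR-133b-3p, 54.9 RPM, where the others had 11.3 to 15.5 RPM. At baseline, weak rat 25 had the highest level of miR-208b-3p, 18.6 RPM from 14 reads, where the others had 0 to 1.98 RPM.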

How the results depend on the processing

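Scaling to UniSp2 and each setting that joins the rat block with another choice or a left-out rat were chosen after seeing the data. Of 1927 repeat estimates of the log2 fold change of single members, 1661 kept their direction and side of the threshold, 213 kept their direction and gained a call, 52 turned, and 1 lost its call (miR-208b-3p at week 8 against baseline, with the block and UniSp2). Taking the rat as a block moved the members called from 0 to 3 (week 4 against baseline), 2 to 4 (week 8 against baseline), 0 to 4 (week 4 against week 1) and 1 to 5 (week 8 against week 4). For week 4 against baseline, the block gave 3 with library size, RLE, no filter or filterByExpr (RLE called miR-133a-3p in place of miR-133a-5p), and DESeq2 without it gave 1. For week 8 against baseline it gave 4 with RLE, no filter and filterByExpr and 3 with library size. For week 4 against week 1 it gave 3 with library size, 4 with RLE, no filter and filterByExpr and 3 with UniSp2, and DESeq2 without it gave 1. For week 8 against week 4 it gave 2 with library size, 2 with RLE, 4 with no filter and 5 with filterByExpr. Without the block, filterByExpr gave 0 in both week 8 comparisons, but it removed miR-208b-3p and miR-499-5p before testing, so these were not tested there. UniSp2, with and without the block, gave 2 at week 1 against baseline and 7 in both week 8 comparisons, where it called 467 of 645 miRNAs (with the block) and 498 of 645 (without it) lower against baseline, and 433 of 645 and 467 of 620 lower against week 4. Leaving out each rat gave 0 to 2 (week 4 against baseline), 0 to 1 (week 4 against week 1), 1 to 2 (week 8 against week 4) and 0 to 1 (strong against weak), and with the block 0 to 1 (week 1), 2 to 4, 3 to 5 (week 8 against baseline), 1 to 5 and 1 to 5. Directions that turned under UniSp2 were, against baseline, miR-133a-5p at week 1 (-0.070, with the block -0.14), miR-1-3p (-0.17), miR-206-3p (-0.43) and miR-499-5p (-0.37, with the block -0.32) at week 4, and at week 8 miR-1b (-1.78, -1.54), miR-133a-3p (-1.40, -1.09), miR-133a-5p (-1.44, -1.51), miR-133b-3p (-1.35, -1.21) and miR-208b-3p (-0.11). At week 8 against week 4 they were miR-133a-3p (-1.40, -1.46) and miR-208b-3p (-0.67, -0.76). Estimates near 0 also turned at week 4 against baseline for miR-206-3p (library size -0.052, DESeq2 -0.012) and miR-499-5p (library size -0.0505, with the block -0.034), and for miR-208b-3p in strong against weak (UniSp2 -0.012, without week 8 -0.080). With rats left out, ranges that crossed 0 were miR-133a-5p (turned with the block in 2 fits, -0.0124 and -0.0087) and miR-206-3p (-0.999 to 0.26, with the block up to 0.22) at week 1, miR-206-3p (-0.39 to 1.14) and miR-499-5p (-0.10 to 0.13, with the block turned in 4 fits, -0.0688, -0.0369, -0.0356 and -0.0016) at week 4, miR-499-5p from week 1 to week 4 (-0.022 to 0.44), miR-208b-3p (-0.11 to 0.34) and miR-499-5p (-0.27 to 0.032) in strong against weak, and the group difference in the week 8 change of miR-133a-3p (-0.94 to 0.043). For log2 ratios, a pseudocount of 10 turned miR-133a-3p to miR-133b-3p at week 4 (0.19), miR-1b to miR-1-3p in strong against weak (0.025) and miR-133a-3p to miR-1b at week 1 (-0.083). Leaving out rats gave miR-133a-3p to miR-133b-3p -0.22 to 0.085 (week 1) and -0.18 to 0.070 (week 4), miR-133a-3p to miR-1b -0.069 to 0.15 (week 1) and -0.0064 to 0.20 (strong against weak), and miR-1b to miR-1-3p 0.52 to 0.77 (week 8, called without weak rat 16). The cause was not tested. The 4 low members rest on few reads, and week 8 libraries are the shallowest by median.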
